A study of Mus musculus with 12 samples.

Results

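Of the 21937 genes listed for mouse central nervous system myelin, 32 form a list of peroxisome genes that was followed across 4 ages. They were taken by gene symbol from a fixed list, with no filter on their values. The list itself was chosen with earlier results of these data known. The 32 genes comprise 14 Pex genes of peroxisome biogenesis, 3 Abcd transporter genes, 3 genes of other membrane proteins (Pxmp2, Pxmp4 and Slc25a17) and 12 enzyme genes. All 32 were found, 30 under their present symbol and 2 under an older symbol, Pex2 as Pxmp3 and Pex11g as Pex11c. Myelin, the stack of membrane that oligodendrocytes wrap around axons, was purified as a light-weight membrane fraction from the brains of wild-type male c57Bl6/N mice by sucrose density centrifugation. RNA was sequenced at postnatal day 18 (P18), postnatal day 75 (P75), 6 months and 24 months, as 12 libraries with 3 at each age. Those of 6 months came from individual brains, and for the other ages the source of each library is not given in the sources used here. The values are read counts per gene divided by a size factor of each library, called normalized read counts below, and they rest on 20299052 to 27214385 reads on genes per library. In such a fraction, fewer cell processes of a type and less RNA per process cannot be told apart.

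Peroxisomes are small organelles that shorten very long-chain and branched fatty acids, carry out the early steps of ether lipid (plasmalogen) synthesis and break down hydrogen peroxide. Their enzymes are made in the cytosol and imported whole by the Pex proteins, which recognise a short signal at the end or near the start of the enzyme. White matter depends on them: myelin is rich in plasmalogens, and inherited defects of peroxisome assembly, of fatty acid import or of plasmalogen synthesis damage it.

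Import signals are shown first, because they are what the receptors Pex5 and Pex7 read, and then the promoters of genes that moved most after P75. Of the listed genes, coding sequences were searched only where a promoter was also analysed, a limit unrelated to the coding sequence itself. The type 1 signal is the last 3 residues of the enzyme and is read by Pex5. Of 10 enzyme genes (all but Hsd17b4 and Amacr) whose coding end was read from the longest complete GENCODE vM1 coding transcript (build NCBIM37, which is mm9), 3 ended in codons of its canonical form (serine, alanine or cysteine, then lysine, arginine or histidine, then leucine), compared with 93 of 21368 protein-coding genes (0.435%). The last 24 coding bases of these 3 and of Cat, which lacks the canonical form, are given 5′ to 3′, with the 3 codons before the stop codon in capitals.
Scp2 (chr4:107717355-107717378, minus strand): cagccgggcaaaGCTAAGCTGtga
Gnpat (chr8:127413192-127413215, plus strand): aaaccagccactGCAAAACTAtaa
Ech1 (chr7:29617104-29617127, plus strand): agcatcaccttcTCCAAGCTCtga
Cat (chr2:103294913-103294936, minus strand): gcgaagggaaaaGCTAACCTGtaa

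The type 2 signal, read by Pex7, is a stretch of 9 codons near the start. A common form of it (arginine or lysine, then leucine, valine or isoleucine, 5 residues of any kind, histidine or glutamine, then leucine or alanine) lay within the first 60 codons of 3 of the 10 enzyme genes and of 276 of 21368 protein-coding genes (1.29%). It also lay in 1 of 11 Pex genes read (9.1%), Pex11a, which encodes a membrane protein. Pex2, Pex5l and Pex19 were not read. The 3 stretches are given from NCBIM37, with the codons of the 4 constrained positions in capitals.
Phyh (chr2:4840140-4840166, plus strand): CGGCTGcaggtccttctgggaCACCTC
Acaa1a (chr9:119250639-119250665, plus strand): CGGCTGcaggtagtgctgggcCACCTG
Agps (chr2:75670417-75670443, plus strand): CGGCTGcgggttctgtcgggcCATCTG

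Promoters of 24 of the 32 genes were matched by symbol in the RefSeq table (build GRCm38.p6), which gave 28 windows of 300 bases around a start site, 250 before and 50 after it. Those of Pex2, Pex5l, Pex19, Abcd2, Abcd4, Hsd17b4, Amacr and Pxmp2 were not analysed here. Both strands were searched for 4 motifs, none of which contains another. The GC box GGGCGG lay in 21 of the 28 windows (75%) and in 35.7% of all 32851 promoters. The median GC content of the 250 bases before the start was 58.2% for these windows and 52.4% for all promoters. The CCAAT box CCAAT lay in 11 (39.3%, against 37.4% of all), the TATA box TATAAA in 3 (10.7%, against 13.6%) and the cAMP response element TGACGTCA in 2 (7.14%, against 1.79%). A match describes letters, not a bound site. The 250 bases before the start are shown for Phyh, Scp2 and Ech1, which fell most among the enzyme genes after P75, and for Pex14, which rose most at that step, with matches in capitals (a GC box on the other strand reads CCGCCC, and a TATA box TTTATA).
Phyh (chr2:4918746-4918995, plus strand): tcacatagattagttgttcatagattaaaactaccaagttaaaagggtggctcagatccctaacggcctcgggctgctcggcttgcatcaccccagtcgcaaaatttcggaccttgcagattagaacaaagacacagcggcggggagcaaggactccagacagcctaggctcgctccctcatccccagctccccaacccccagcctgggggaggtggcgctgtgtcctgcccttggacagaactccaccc
Scp2 (chr4:108118548-108118797, minus strand): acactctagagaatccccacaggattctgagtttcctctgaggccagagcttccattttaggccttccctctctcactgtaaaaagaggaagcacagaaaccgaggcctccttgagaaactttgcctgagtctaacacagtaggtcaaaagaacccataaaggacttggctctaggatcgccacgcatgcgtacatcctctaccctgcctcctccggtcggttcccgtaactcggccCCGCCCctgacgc
Ech1 (chr7:28825088-28825337, plus strand): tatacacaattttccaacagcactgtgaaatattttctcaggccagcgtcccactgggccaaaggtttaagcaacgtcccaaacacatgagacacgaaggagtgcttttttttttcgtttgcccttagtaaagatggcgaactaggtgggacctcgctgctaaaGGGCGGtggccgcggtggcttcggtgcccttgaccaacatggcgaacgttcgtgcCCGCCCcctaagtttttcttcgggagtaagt
Pex14 (chr4:149099844-149100093, minus strand): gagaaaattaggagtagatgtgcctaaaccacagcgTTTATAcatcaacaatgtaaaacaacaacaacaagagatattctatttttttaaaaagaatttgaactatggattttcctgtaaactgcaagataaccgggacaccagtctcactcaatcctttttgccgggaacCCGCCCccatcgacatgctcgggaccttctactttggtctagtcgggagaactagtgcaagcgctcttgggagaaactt

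Division of the counts by the length of the merged exons (GENCODE vM1) allowed levels to be compared between genes. Over the 12 libraries the 2 highest were Phyh, the phytanoyl-CoA hydroxylase that starts alpha-oxidation of branched fatty acids, with a mean of 2105 normalized read counts per kb, and Scp2, a thiolase and sterol carrier protein, with 2078. Their ranges over the libraries overlapped, from 1527 to 3011 for Phyh and from 1493 to 2759.6 for Scp2. Pex5l followed with a mean of 888 per kb, then Slc25a17 with 722, Ech1 with 714 and Cat with 611. Hsd17b4, Pex19, Abcd3, Acaa1a, Pex2 and Pex7 had means between 335 and 485 per kb, and Pex5, Gnpat, Pex16, Pex13 and Pex6 between 210.3 and 294 per kb. The means of Abcd2, Far1, Pex3, Pxmp2, Agps and Amacr lay between 107 and 173 per kb, and those of Pex14, Pex10, Abcd4, Pxmp4, Pex26, Acox3 and Hacl1 between 37.3 and 93.9 per kb. Pex11a and Pex11g, both of a family that elongates and divides peroxisomes, were lowest with 14.4 and 4.04 per kb. With the longest transcript as the length, 20 of the 32 ranks changed, by at most 5 places.

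**Figure D1:**
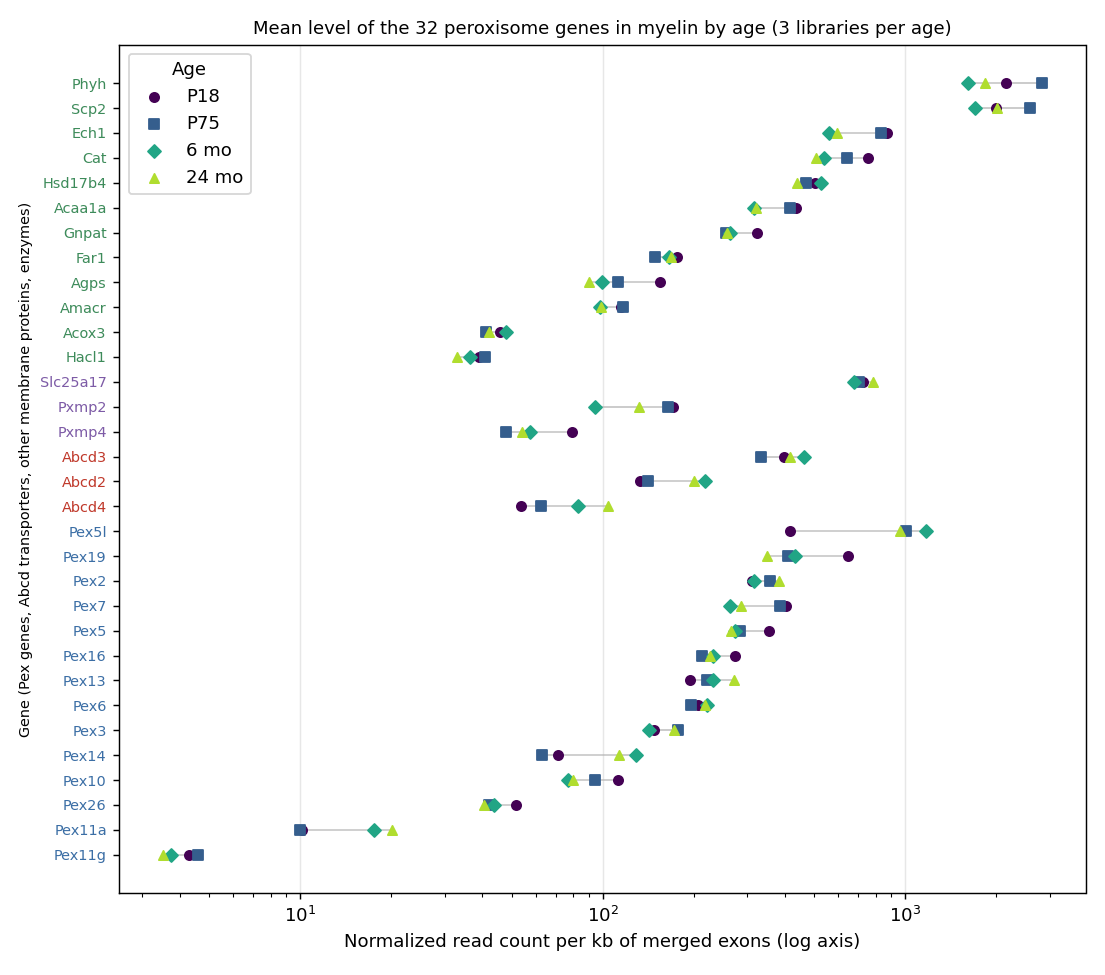
Mean normalized read count per kb of merged exons (log axis) of the 32 genes at each of 4 ages, 3 libraries per age, with gene names coloured by class. Phyh and Scp2 stand above 1493 per kb in every library, Pex11a and Pex11g are lowest, and the highest age mean of Pex5l is 2.81 times its lowest, the widest ratio of the 32 genes.

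Consecutive ages were compared to ask how these transcripts change as myelin matures and ages, and P18 was set against 24 months for the whole span. Calls were made where the adjusted p lay under 0.1 (limma on log2(normalized read count + 1), Benjamini-Hochberg over 14634 genes with a mean of at least 10). All 32 passed that minimum. In at least 1 of the 3 consecutive steps 28 of them changed. Under the deposited scaling Pex13 changed over the whole span alone, and Pex6, Pex11g and Hacl1 were called in no comparison. At the single steps, 7137, 8865 and 4287 of the 14634 tested genes were called. The share of all tested genes called in at least 1 step was not computed, so the 28 are not read as a trait of the list. The highest age mean was at P18 for 14 genes, at P75 for 6, at 6 months for 7 and at 24 months for 5. For these counts too, no share of all genes was computed. The p-values set each difference against the spread between libraries of the same age, pooled over all 12 libraries and moderated across the tested genes. Of 63 calls over the 4 comparisons, 36 held under every alternative in which they were tested (the 2 calls of Pex11a drop out of a fit of genes with a mean over 100).

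From P18 to P75, 4 of the 32 genes rose and 11 fell, where 25.9% of all tested genes rose and 22.9% fell. The median log2 difference of the 32 was −0.07, compared with 0.02 over all tested genes. When the libraries were scaled to the same total instead, the median of all genes at this step was 0.14, with 8 of the 32 called higher and 3 lower (32.4% and 12.5% of all genes). The distance of the median of the 32 genes from that of all genes was −0.087 under the deposited scaling and −0.085 under the total scaling. Pex2, Pex13, Abcd2 and Abcd4 were called higher under total scaling but not under the deposited scaling (adjusted p of 0.0348, 0.0634, 0.0948 and 0.0719, limma). The 3 that fell under both scalings were Pex19, Pxmp4 and Agps. Without P18 replicate 1 or without P18 replicate 2 the number that fell was 7. Of 9 oligodendrocyte markers, 6 fell at the same step (Cnp by 1.71 and Cldn11 by 1.29 on the log2 scale), and their summed normalized count was 2301312 to 5931970.4 at P18 and 1179456 to 1758355 at P75. Of 5 red blood cell markers 4 were listed at 0 in all 12 libraries, and the fifth, Alas2, fell by 3.30 on the log2 scale, with a summed count of 362 to 472 at P18 and 36.2 to 44.1 at P75. Among the other lists, 6 of 10 microglia, 3 of 10 astrocyte, 3 of 12 neuron and 2 of 8 endothelial markers rose. Of these lists, 2 astrocyte and 3 neuron markers fell. The part of these in the changes of the peroxisome genes was not tested.

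From P75 to 6 months, 7 rose and 10 fell, where 31.2% of all tested genes rose and 29.4% fell, and the median of the 32 genes was −0.004 and that of all genes 0.005. By class, the 3 transporters all rose, 6 of 12 enzyme genes fell with 1 that rose, and of the 14 Pex genes 2 rose and 3 fell. In the same step 9 of 12 neuron markers rose and 2 fell (Syt1 rose by 2.34), 7 of 10 microglia markers rose and 1 fell (Aif1, by 1.03), 4 of 8 endothelial markers rose and 1 fell, 3 of 10 astrocyte markers rose and 2 fell, and 2 of 9 oligodendrocyte markers rose. The summed count of the 12 neuron markers went the other way, from 201348 to 228380 at P75 down to 191478 to 199475 at 6 months. The part of these in the changes of the peroxisome genes was not tested.

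**Figure D2:**
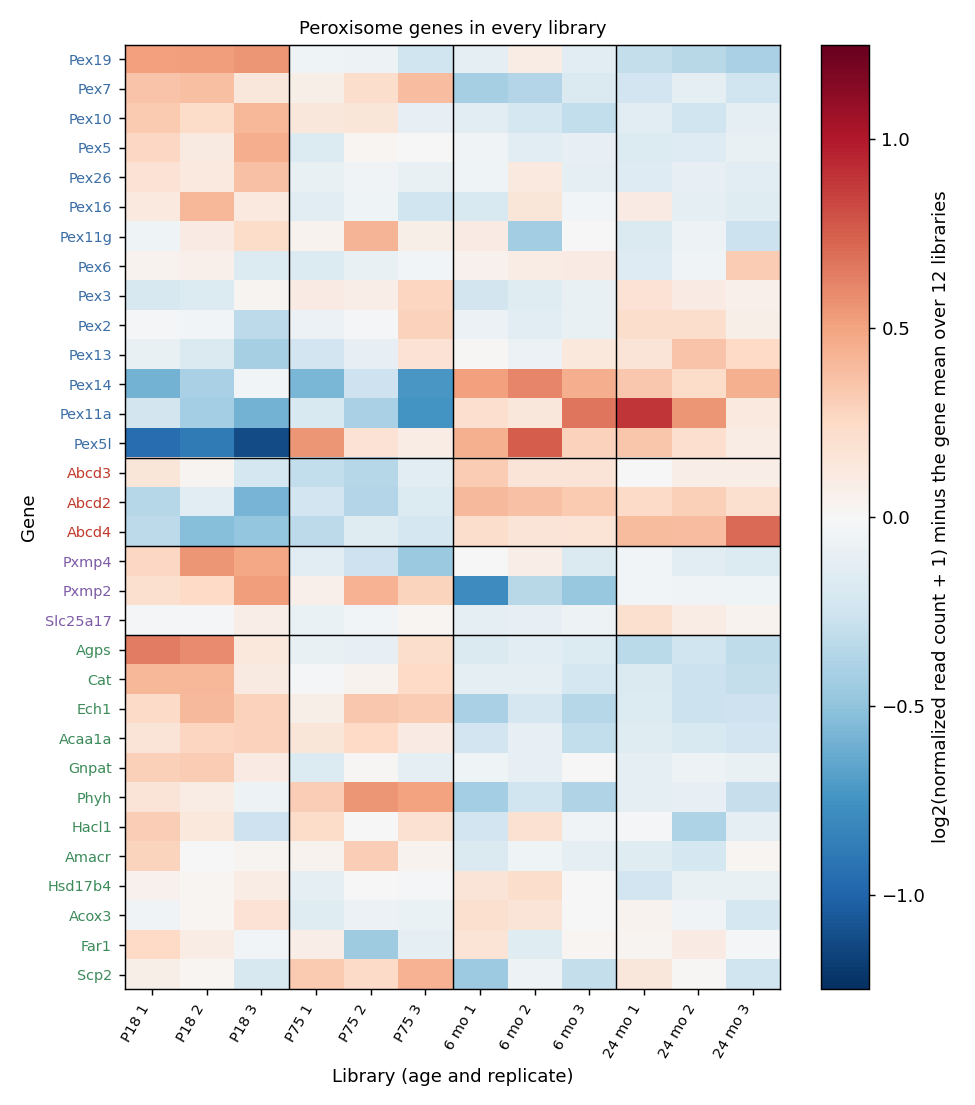
log2(normalized read count + 1) of each gene minus its mean over 12 libraries, in columns by age and replicate and rows by class (Pex genes, Abcd transporters, other membrane proteins, enzymes from top to bottom). Pex5l is low in the 3 libraries of P18 alone, Pex14 and Abcd2 are high at 6 and 24 months, and Phyh and Scp2 are highest at P75.

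From 6 to 24 months, 5 rose and 2 fell, where 16.6% of all tested genes rose and 12.7% fell. The median of the 32 genes was −0.04 and that of all genes 0.03. These counts were small and depended on single libraries. The number that rose was 0 without 6-month replicate 1, 3 without 6-month replicate 2 or 3, and 2 without 24-month replicate 1 or 2, and the number that fell was 0 without 6-month replicate 2, 3 without 6-month replicate 3 and 1 without 24-month replicate 1. Under total scaling 1 rose and 3 fell (9.53% and 11.0% of all genes). The falls included Pex5l (adjusted p = 0.0871, limma), which was not called under the deposited scaling. Microglia markers rose in 5 of 10 cases at this step, with a summed count of 6614 to 7769 at 6 months and 9268 to 11459 at 24 months. Of the other lists, 2 of 10 astrocyte and 1 of 8 endothelial markers rose, and 3 of 12 neuron and 2 of 9 oligodendrocyte markers fell.

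Over the whole span from P18 to 24 months, 8 of the 32 rose and 16 fell, where 34.7% of all tested genes rose and 34.3% fell. The median log2 difference was −0.23, against −0.01 for all genes. No enzyme gene was called higher and 8 of 12 were lower. Under total scaling 8 of the 32 rose and 11 fell, with a median of −0.15 against 0.07 for all genes. The enzyme genes Phyh, Hsd17b4 and Amacr then lost their calls (adjusted p of 0.216, 0.352 and 0.371, limma). Amacr also lost its call with edgeR (0.109) and DESeq2 (0.143). Among Pex genes 6 rose and 6 fell, and among the transporters 2 of 3 rose. This comparison shares its libraries with the consecutive steps, so it repeats part of their information. Between the same ages 6 of 9 oligodendrocyte markers fell, 9 of 10 microglia markers rose, 6 of 12 neuron markers rose and 3 fell, and 6 of 10 astrocyte markers rose and 2 fell. The summed count of the 9 oligodendrocyte markers was at least 1179456 in every library, above the 164708 to 228380 of the 12 neuron markers and the 99318 to 120415 of the 10 astrocyte markers. The sum of the 8 endothelial markers was 565.0 to 782, and Alas2 fell by 3.49 over the span.

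**Figure D3:**
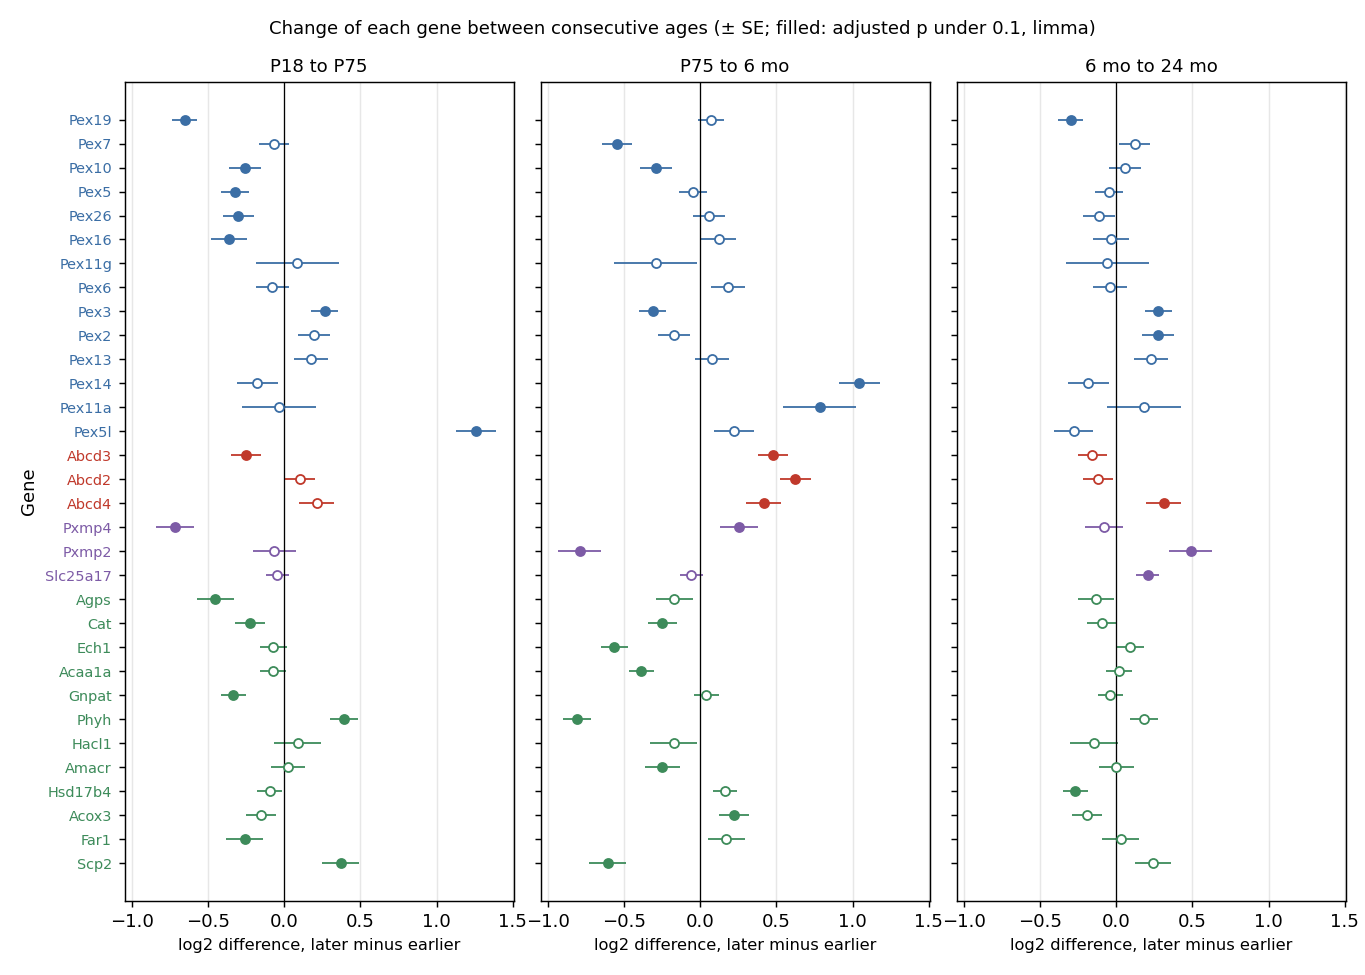
log2 difference (later minus earlier age) of the 32 genes at each of the 3 consecutive steps, with the SE of the limma fit as bars and filled points for an adjusted p under 0.1. At the step from P75 to 6 months the 3 Abcd transporters and Pex14 lie to the right of 0, and Phyh, Pxmp2, Scp2, Ech1 and Pex7 to the left.

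Among the Pex genes, Pex5l changed most. Pex5l (chromosome 3, 32848553 to 33042169, minus strand, NCBIM37) encodes a relative of the receptor Pex5 that is known mainly as an auxiliary subunit of HCN channels in neurons. Its normalized read count was 2138, 2246 and 1915 at P18, 6061, 4704 and 4429.7 at P75, 5639.9, 7003 and 5056 at 6 months, and 5275, 4799.5 and 4414 at 24 months. Every library after P18 lay above every library of P18, and the later ages overlapped one another. The rise from 2099.8 ± 169 to 5065 ± 873 (SD, n = 3 each) was 2.39-fold (log2 difference 1.26, SE 0.13, adjusted p = 3.14e-06, limma). At 24 months the level was still 2.30-fold that of P18 (adjusted p = 6.57e-07). Of the 12 neuron markers, 3 rose and 3 fell from P18 to P75 (Kcna4 rose by 0.87 and Gad1 by 0.62 on the log2 scale, and Rbfox3 fell by 0.51), and their part in the change of Pex5l was not tested.

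The import receptors both fell over the span. Pex5, the receptor of the type 1 signal, had counts of 1382, 1245 and 1579 at P18 and of 1023 to 1173 in the 9 later libraries. Its fall lay at the first step, by 0.32 on the log2 scale (SE 0.09, adjusted p = 0.00978), although under total scaling its adjusted p was 0.243. Pex7, the receptor of the type 2 signal, had 991, 1004 and 854 at P18, 815, 898 and 1010.4 at P75, 581, 597 and 682 at 6 months and 654, 717 and 651 at 24 months. It did not pass the test at the first step (log2 difference −0.07, SE 0.10) and was lower in all 6 later libraries than in all 6 earlier libraries. The fall from P75 to 6 months was by 0.55 on the log2 scale (SE 0.10, adjusted p = 0.000293).

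The docking proteins Pex13 and Pex14, which receive the loaded receptors at the membrane, were both higher at 24 months than at P18. Pex14 (chromosome 4, 148334644 to 148473985, minus strand, NCBIM37) was at 371, 424 and 545 at P18, 377, 466 and 338 at P75, 799, 854 and 765 at 6 months, and 706, 658 and 765 at 24 months. Its 6 libraries of the later ages lay above its 6 libraries of the earlier ages. The rise from 394 ± 65.7 to 806 ± 44.9 at the step from P75 to 6 months was 2.06-fold (log2 difference 1.04, SE 0.13, adjusted p = 1.15e-05, limma). The exons of Pex14 overlap those of Gm17029 on the opposite strand by 1776 bases. Whether the counting used strand is not given in the sources used here, so reads of the overlapping part cannot be assigned with certainty. Gm17029 is not among the listed genes, so any reads of it there could have been counted for Pex14 if strand was ignored. Its part in the rise of Pex14 was not tested. Pex13 rose over the whole span from 903 ± 103 to 1262 ± 84.3 (log2 difference 0.49, SE 0.11, adjusted p = 0.00122). Under the deposited scaling it passed the test at no single step. Under total scaling it was called higher from P18 to P75 (log2 difference 0.3, adjusted p = 0.0634, limma).

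The RING ubiquitin ligases Pex2 and Pex10, which mark the receptors for release, moved in opposite directions over the span. Pex10 fell at both early steps, from 370.0 ± 24.5 to 310.0 ± 31.1 and then to 253 ± 14.4, and over the span by 0.49 on the log2 scale (adjusted p = 0.000696). The first step had an adjusted p of 0.0588, and of 0.113, 0.15 and 0.237 without P18 replicate 1, P18 replicate 3 and P75 replicate 3, 0.469 under total scaling and 0.112 with the 2 ages alone. The second had 0.0292, and 0.105 and 0.101 without P75 replicate 2 and 6-month replicate 3. Pex2 was higher at 24 months, with 899, 901 and 814, than at P18, with 758, 755 and 614 (log2 difference 0.30, SE 0.11, adjusted p = 0.0203). Its rise from 6 to 24 months (log2 difference 0.28, SE 0.11) had an adjusted p of 0.0756 (limma). That value was 0.126 to 0.2 without any 1 of the 6-month libraries or 24-month replicate 1 or 2. It was 0.182 under total scaling and 0.103 with the replicate number as a block. Of the pair that extracts the receptors, the ATPase Pex6 was called at no step and ranged from 703 to 992, while its membrane anchor Pex26 fell from 294 ± 26.9 at P18 to 238 ± 5.18 at P75 (adjusted p = 0.0288, 0.106 without P18 replicate 3 and 0.315 under total scaling) and stayed between 225 and 272 afterwards.

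The proteins Pex3, Pex16 and Pex19 insert proteins into the peroxisomal membrane. Pex19, the cytosolic receptor for membrane proteins (chromosome 1, 174056886 to 174066624, plus strand, NCBIM37), had counts of 2434, 2458 and 2500.0 at P18, 1640.5, 1632 and 1432 at P75, 1580.2, 1825 and 1545 at 6 months and 1389.9, 1337 and 1285 at 24 months. P18 was apart from all later libraries, and 24 months was below every library of the other ages. Pex19 fell by 0.65 on the log2 scale from P18 to P75 (SE 0.08, adjusted p = 2.41e-05) and by 0.30 from 6 to 24 months (adjusted p = 0.0232, and 0.112 without 6-month replicate 2). Pex16 fell from 486 ± 60.1 to 377 ± 24.7 at the first step (adjusted p = 0.0194, 0.107 without P18 replicate 2 and 0.111 under total scaling). Pex3, the membrane anchor of Pex19, alternated: it rose from 698 ± 64.4 to 838 ± 61.4, fell to 675 ± 30.6 and rose to 818 ± 34.2, with adjusted p of 0.0261, 0.0079 and 0.0405. The first of these rises had 0.101 and 0.11 without P18 replicate 1 and P75 replicate 3, and the last had 0.138, 0.128 and 0.101 without 6-month replicate 1, 24-month replicate 1 and 24-month replicate 2 and 0.195 under total scaling.

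Of the division family, Pex11a had 27.3, 23.7 and 21.1 at P18, 28.1, 24.1 and 18.8 at P75, 37.4, 35.5 and 51.6 at 6 months and 60.4, 47.6 and 35.2 at 24 months. The 6 later libraries exceeded the 6 earlier libraries, at counts low enough that the error was wide (log2 difference 0.78 from P75 to 6 months, SE 0.24, adjusted p = 0.0123). Pex11g stayed between 9.76 and 18.5 in all libraries, and each of its log2 differences had an SE of 0.27.

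The 3 Abcd genes encode half-transporters of the ABC family. Abcd2 and Abcd3 import activated fatty acids into the peroxisome, and Abcd4 is known for its role in vitamin B12 export from lysosomes. Abcd2 (chromosome 15, 90976315 to 91022238, minus strand, NCBIM37) was at 728, 846 and 624 at P18 and 793, 725 and 828 at P75, then at 1237, 1204 and 1172 at 6 months and 1106, 1152 and 1075 at 24 months. The earlier pair of ages overlapped, and every later library was higher. Under total scaling Abcd2 was also called higher from P18 to P75 (log2 difference 0.23, adjusted p = 0.0948, limma). The rise from P75 to 6 months was 1.54-fold (log2 difference 0.62, SE 0.10, adjusted p = 8.03e-05, limma). Abcd4 was at 159, 138 and 143 at P18, 158, 179.9 and 171 at P75, 232, 223 and 225 at 6 months and 263, 261 and 326 at 24 months. Its level was 1.92-fold higher at 24 months than at P18 (log2 difference 0.94, SE 0.12, adjusted p = 2.96e-06), with called rises at the second step (adjusted p = 0.00653) and the last step (adjusted p = 0.0681, 0.129 to 0.161 without any of the 6-month libraries in turn, 0.252 without 24-month replicate 3, 0.215 under total scaling and 0.109 under quantile normalization). Abcd3, the most abundant of the 3 per kb, had 1804, 1667 and 1402 at P18, 1318, 1276 and 1488 at P75, 2033, 1826 and 1819.7 at 6 months and 1635, 1725 and 1730.1 at 24 months. It dipped at P75, where its libraries overlapped those of P18 (log2 difference −0.25, adjusted p = 0.0474, 0.21 and 0.125 without P18 replicates 1 and 2, 0.122 and 0.153 without P75 replicates 1 and 2, 0.41 under total scaling and 0.108 with the 2 ages alone), and rose to 6 months by 0.48 on the log2 scale (SE 0.10, adjusted p = 0.000628).

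**Figure D4:**
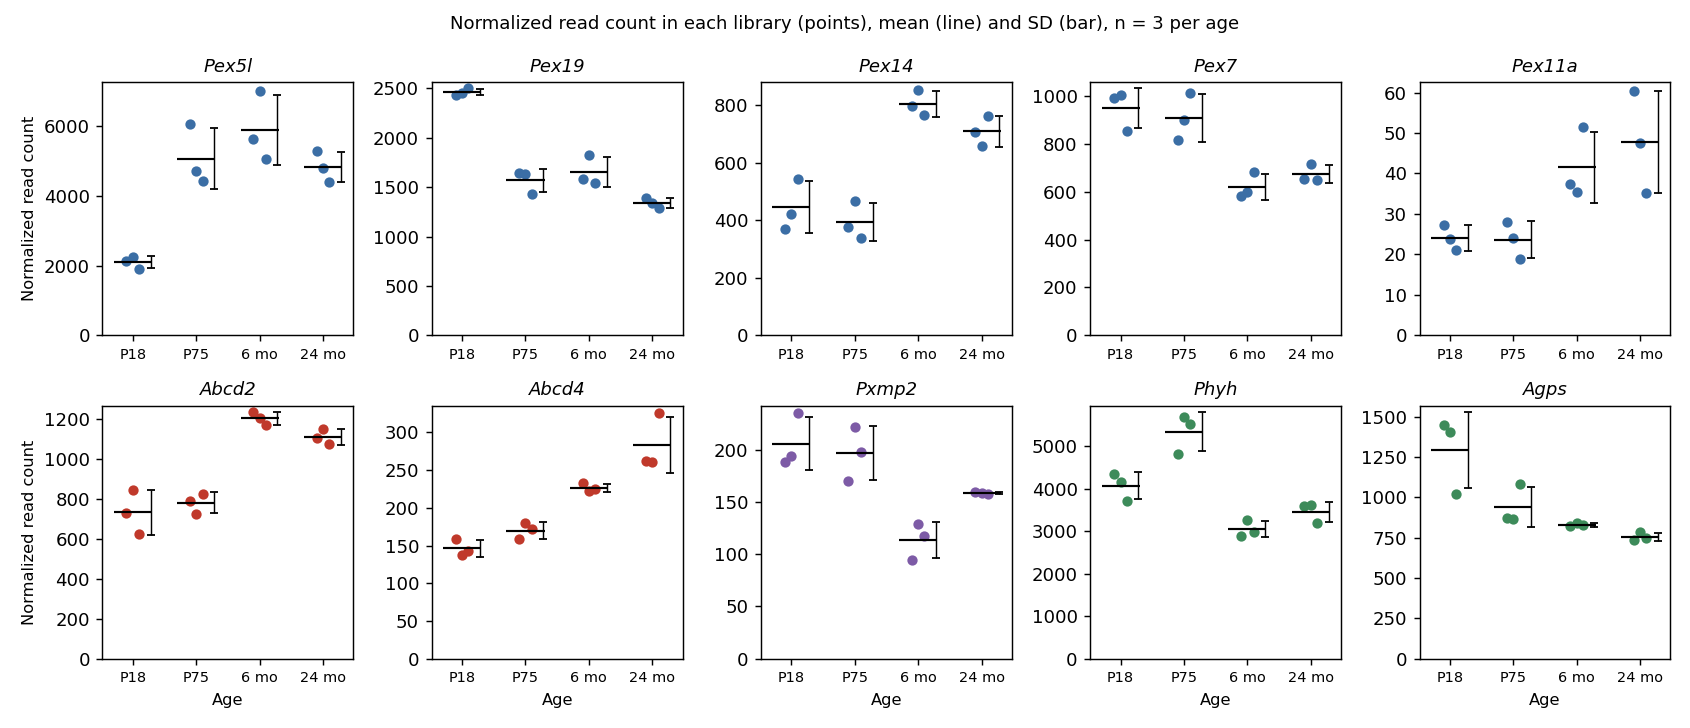
Normalized read count (linear axis from 0) of 10 genes in each of 12 libraries (points), with the mean (line) and SD (bar) of 3 libraries per age. Pex14, Pex11a and Abcd2 are higher in every library of 6 and 24 months than in every library of P18 and P75, and Pex7 is lower.

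Of the other membrane proteins, Pxmp2, a channel protein of the peroxisomal membrane, changed most. Its counts were 188, 194 and 235 at P18, 170.4, 222 and 198 at P75, 94.2, 129 and 118 at 6 months, and 159.5, 159 and 157 at 24 months. The libraries of 6 months were below all others. Pxmp2 fell from P75 to 6 months by 0.79 on the log2 scale (SE 0.14, adjusted p = 0.000217) and rose to 24 months by 0.49 (SE 0.14, adjusted p = 0.0245, and 0.122 without 6-month replicate 1). Pxmp4 was at 217, 268 and 255 at P18 and between 132 and 194 in all later libraries, and fell at the first step (log2 difference −0.72, SE 0.13, adjusted p = 0.000293). Its small rise from P75 to 6 months (log2 difference 0.26, adjusted p = 0.0955) had an adjusted p of 0.105 when the replicate number was taken as a block, 0.136 and 0.317 without P75 replicates 2 and 3, and 0.19 and 0.269 without 6-month replicates 1 and 2. It was 0.149 under total scaling, 0.16 under quantile normalization, 0.128 without a filter, 0.108 with the 2 ages alone, 0.101 with edgeR and 0.14 with DESeq2. Slc25a17, a carrier of cofactors such as coenzyme A, was the steadiest of the 3, with 1111 to 1271 up to 6 months, and rose to 1381, 1283 and 1241 at 24 months (log2 difference 0.21, SE 0.08, adjusted p = 0.0623). That value was 0.134 to 0.207 without 6-month replicate 1 or 2 or 24-month replicate 1 or 2, and 0.317 under total scaling.

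Among the enzymes, those of fatty acid oxidation had most of their calls between P75 and 6 months. At that step 1 of 6 beta-oxidation genes rose and 4 fell, and 1 of 2 alpha-oxidation genes fell. Over all 14634 tested genes 8865 were called at the same step, against 7137 from P18 to P75 and 4287 from 6 to 24 months. The timing is therefore not particular to these enzymes. Phyh (chromosome 2, 4840065 to 4859776, plus strand, NCBIM37) was at 4348, 4155 and 3724 at P18, 4819, 5699 and 5521 at P75, 2891, 3261 and 2996 at 6 months and 3587, 3617 and 3192 at 24 months. P75 was above all other libraries. Phyh rose 1.31-fold from P18 to P75 (log2 difference 0.39, SE 0.09, adjusted p = 0.00329) and fell from 5346 ± 465 to 3049.6 ± 191 at 6 months, by 0.81 on the log2 scale (SE 0.09, adjusted p = 4.11e-06, limma). Hacl1, the lyase that acts after Phyh in alpha-oxidation, was called at no step and ranged from 145 to 234.

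Scp2 (chromosome 4, 107716444 to 107817603, minus strand, NCBIM37) had 7469.6, 7252 and 6173 at P18, 8952, 8419.6 and 9598 at P75, 5194, 6801 and 5802 at 6 months and 7872, 7211 and 5969.6 at 24 months. Like Phyh it was highest in the libraries of P75, rose from P18 by 0.37 (adjusted p = 0.0218) and fell to 6 months by 0.61 (SE 0.12, adjusted p = 0.000565) on the log2 scale. The gene encodes a thiolase and a shorter sterol carrier protein that share exons, and a count per gene does not separate them. Ech1, a dienoyl-CoA isomerase found in peroxisomes and mitochondria, had 1886, 2114 and 1958 at P18, 1678, 2019 and 1988 at P75, 1209.7, 1382 and 1248 at 6 months and 1424, 1323 and 1339 at 24 months. It fell once, from P75 to 6 months, by 0.56 (SE 0.09, adjusted p = 7.73e-05), and all later libraries were below all earlier libraries.

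Acaa1a, the thiolase of straight-chain beta-oxidation, had the same shape with 722 to 821 in the 6 earlier libraries and 543 to 628 in the 6 later libraries, and fell at that step by 0.39 (SE 0.08, adjusted p = 0.0012). A near-identical paralog exists, so its reads are uncertain to that extent. Amacr, the racemase for branched acyl-CoA, fell from P75 to 6 months by 0.25 on the log2 scale (SE 0.11, adjusted p = 0.077). That value was 0.104 with the replicate number as a block, and 0.293, 0.191 and 0.136 without P75 replicate 2, 6-month replicate 1 and 6-month replicate 3, and 0.125 under total scaling. Acox3, an oxidase of branched acyl-CoA, was the enzyme gene that rose at this step, from 424 ± 11.7 to 496 ± 37.4 (log2 difference 0.22, SE 0.10, adjusted p = 0.0693, and 0.103 to 0.202 without any 1 of the P75 libraries or 6-month replicate 1 or 2, 0.167 under total scaling and 0.109 under quantile normalization). Its exons overlap 4931431C16Rik on the opposite strand by 700 bases. Hsd17b4, the D-bifunctional enzyme of beta-oxidation, fell from 1841, 1910.2 and 1641 at 6 months to 1389.9, 1539 and 1547 at 24 months, by 0.27 (SE 0.08, adjusted p = 0.0314, and 0.123 and 0.124 without 6-month replicate 2 and 24-month replicate 1).

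The 3 genes of ether lipid synthesis all fell from P18 to P75, where 22.9% of all tested genes fell. They were called at no later step. Under total scaling, where 12.5% of all genes fell, only Agps of the 3 kept its call (adjusted p = 0.0363, limma). Agps (chromosome 2, 75670234 to 75769407, plus strand, NCBIM37), which forms the ether bond, had 1451, 1407 and 1022 at P18, 872, 864 and 1081 at P75, 821, 844 and 827 at 6 months and 739, 785 and 748 at 24 months. P18 and P75 overlapped through P18 replicate 3 and P75 replicate 3, while 6 and 24 months lay below both and did not overlap each other. It fell by 0.45 at the first step (SE 0.12, adjusted p = 0.0064) and by 0.75 over the span (SE 0.12, adjusted p = 4.07e-05) on the log2 scale. Gnpat, the acyltransferase of the preceding step, fell from 1162 ± 91.5 to 920.3 ± 61.1 (adjusted p = 0.00424, and 0.128 under total scaling). Far1, which supplies the fatty alcohol, fell from 1420.5 ± 139.8 to 1196 ± 217 (adjusted p = 0.0973) with overlapping libraries, and did not differ detectably between P18 and 24 months (log2 difference −0.06, SE 0.12). Its adjusted p at the first step was 0.128 to 0.451 without P18 replicate 1 or 2 or P75 replicate 2 or 3, 0.463 under total scaling, 0.139 under quantile normalization, 0.122 without a filter, 0.157 with the 2 ages alone and 0.128 with DESeq2.

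Cat, the catalase that breaks down hydrogen peroxide, had 2102, 2099 and 1707 at P18, 1554, 1619 and 1875 at P75, 1442, 1448 and 1347 at 6 months and 1387, 1302 and 1277 at 24 months. The first pair of ages overlapped, and all 6 later libraries lay below all 6 earlier libraries. It fell by 0.57 on the log2 scale from P18 to 24 months (SE 0.10, adjusted p = 7.82e-05, limma). The falls at the first and second steps were by 0.22 and 0.25 (adjusted p = 0.0719 and 0.0386, limma). The first had 0.173 to 0.232 without P18 replicate 1 or 2 or P75 replicate 1 or 2. It had 0.492 under total scaling, 0.119 under quantile normalization and 0.149 with the 2 ages alone. The second had 0.177 and 0.119 without P75 replicate 3 and 6-month replicate 3.

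Other peroxisomal genes gave a wider view. Of 33 tested on a list of 34, 7 rose and 9 fell from P18 to P75, where 25.9% of all genes rose and 22.9% fell, with a median log2 difference of −0.10 against 0.02 over all genes. From P75 to 6 months 6 rose and 13 fell (31.2% and 29.4% of all genes), with a median of −0.12 against 0.005. From 6 to 24 months 2 rose and 6 fell (16.6% and 12.7%), with a median of 0.03 in both, and over the span 9 rose and 17 fell (34.7% and 34.3%), with a median of −0.20 against −0.01. Idh1, a cytosolic and peroxisomal dehydrogenase that yields NADPH, fell from 2223 ± 435 at P18 to 953 ± 72.4 at P75 (log2 difference −1.20, SE 0.12, adjusted p = 2.03e-06). Slc27a2, a very long-chain acyl-CoA synthetase, rose from 103 ± 2.54 at P18 to 331 ± 15.6 at 24 months (log2 difference 1.68, SE 0.12, adjusted p = 9.94e-09). Far2, the relative of Far1, rose from 57.9 ± 8.37 at P75 to 178 ± 18.2 at 6 months (log2 difference 1.61, SE 0.18, adjusted p = 3.52e-06). Its exons overlap those of Ergic2 on the opposite strand by 837 bases. Among 4 division factors that peroxisomes share with mitochondria, none was called from P18 to P75 or from 6 to 24 months, and from P75 to 6 months Fis1 fell by 0.60 and Mff by 0.50 while Dnm1l rose by 0.18. Of 7 nuclear receptors and coactivators of the PPAR and RXR families, 3 fell from P18 to P75, with Ppard from 405 ± 21.6 to 200.3 ± 40.9 (log2 difference −1.03, SE 0.15, adjusted p = 6.6e-05), 3 rose and 2 fell to 6 months, 2 fell to 24 months, and 5 fell over the span.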

How the data were processed

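RNA-seq of myelin purified from mouse brains at P18, P75, 6 months and 24 months was used (3 libraries per age, 12 in all, age and replicate number per the labels). The authors aligned reads to mm9 with TopHat, counted reads on genes with HTSeq 0.5.4p1 and scaled the libraries with DESeq. The aligner was TopHat2 2.0.8 in the submitters' processing notes, while the published methods name a later version. The signal they deposited is the resulting normalized read count of 21937 genes. The annotation and the use of strand in counting are not given in the sources used here. Every value up to 500 was a whole multiple (tolerance 0.006) of 1 read, worth 0.812 to 1.19, so 20299052 to 27214385 reads per library were recovered.

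Here log2(normalized read count + 1) of 14634 genes with a mean of at least 10 was fitted with limma 3.58.1 (R 4.3.3, trend, empirical Bayes) over all 12 libraries with age alone. Calls are at an adjusted p under 0.1 (Benjamini-Hochberg). edgeR 4.0.16 and DESeq2 1.42.0 were run on the recovered reads. In simulated data for P18 to P75 (14634 genes), 67, 67 and 66 genes were changed 1.5-fold, 2-fold and 3-fold and all others were left equal. Of these limma recovered 67.2%, 98.5% and 100%, with 20 unchanged genes called. In the data themselves 7137 genes were called at this step, and changes under 1.5-fold were not simulated. The rates therefore do not describe the smaller calls given above. Same-numbered libraries of P75 and 6 months deviated together (r of 0.161, 0.101 and 0.187 between deviations from the age means), although they come from different mice. The corresponding r was −0.151 to −0.026 for P18 and P75, −0.213 to −0.06 for 6 and 24 months and −0.051 to 0.029 for P18 and 24 months. Symbols were matched to GENCODE vM1 and RefSeq with Python 3.11.15. The members and lists were chosen with earlier results of these data known. All 32 members are named, and at least 1 test is given for each member that was called. Of other lists, at most the 3 largest called changes per comparison are named. The results of 1 marker gene are not reported here and are left out of its list.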

Additional observations from a re-analysis of the deposited data

How the results depend on the processing

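The alternatives were total scaling, quantile normalization, a pseudocount of 0.5 or 10, no filter, a mean over 100, the 2 ages alone, the replicate block, edgeR, DESeq2, an adjusted p under 0.05 and each library left out. Of 63 calls of single members over the 4 comparisons, 36 kept their side of the threshold under each of these in which they were tested and 0 reversed (the 2 calls of Pex11a were not tested with a mean over 100, where 61 were). Calls were lost for 20 of 63 under total scaling, 10 at 0.05, 6 with the 2 ages alone, 5 under quantile normalization, 4 with the replicate block, 3 each with no filter and DESeq2, 2 with edgeR and 1 with a pseudocount of 10, and in 68 of 378 repeats with 1 library left out. From P18 to P75 members called higher numbered 8 under total scaling, and members called lower 3 under total scaling, 7 with the 2 ages alone and 7 to 9 with 1 library left out (higher 3 to 6). From 6 to 24 months members called higher numbered 1 under total scaling, 2 at 0.05 and 0 to 5 with 1 library left out, and members called lower 0 to 3. The cause was not tested. With the replicate number as a block, 6 members were higher and 9 lower from P75 to 6 months, and 4 higher and 3 lower from 6 to 24 months, where Pex2 lost its call (adjusted p = 0.103). Total scaling moved the median log2 difference of all genes from 0.02 to 0.14 from P18 to P75, and quantile normalization to −0.12 from P18 to 24 months. Pex11a and Pex11g rest on few reads per library, which limits what could be detected in them.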
